A study of Mus musculus with 13 samples.

Results

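Expression of 8 genes used as markers of border macrophages and monocytes was examined, out of 52550 genes counted in RNA-seq libraries of sorted mouse retinal cells. The genes were Mrc1, Cd163, Cd163l1, Lyve1, F13a1, Ms4a7, Pf4 and Ly6c2, and they were found by mapping the Ensembl gene IDs of the count table, without their version, to mouse gene symbols. All 8 were found. They were named in advance by symbol, so no measured value of a comparison chose them, although earlier results from these data were known.

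The libraries were made from retinal cells sorted for the surface protein Thy1.2, which retinal ganglion cells (RGCs, the neurons whose axons form the optic nerve) carry at a high level and mouse T cells carry as well. AAV2-Cre (2 libraries) and AAV2-GFP (3 libraries) came from mice with floxed Kdm6a, which encodes the histone demethylase UTX and whose exon 3 lies between loxP sites. The virus was injected into the vitreous, where AAV2 also reaches cells other than RGCs, and carried Cre recombinase in AAV2-Cre and green fluorescent protein in AAV2-GFP. All 5 were taken 3 days after optic nerve crush, so the controls carried the floxed allele, a virus and the injury as well. The labels give P42, postnatal day 42, as their age, while the methods place the crush later. Wild type mice gave the development groups P1 (3 libraries), P14 (3) and P21 (2), taken with no virus or crush. Dataset, age, mouse line, virus and injury differ together between the injured adults and development and cannot be told apart.

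Border macrophages sit at the edges of the nervous system, in the meninges, around vessels and in the choroid plexus, while microglia live within the tissue. In the eye, related macrophages line vessels and the borders of the retina. Classical monocytes circulate in blood, enter injured tissue and can there become macrophages. Many border macrophages carry scavenger receptors such as MRC1, CD163 and LYVE1, and mouse classical monocytes are recognised by surface Ly6C.

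Levels are given as CPM, in which each count is divided by the size of its library and brought to one common scale, with library sizes corrected by the TMM method of edgeR. Total counts ran from 13637602 to 16070720 in the injured adults and from 30357454 to 38812917 in development, so 3 counts, taken as the detection floor, correspond to 0.181 to 0.218 CPM and 0.0763 to 0.0975 CPM. The floor covers counting error only. Of 12 RGC markers 10 fell and 2 rose at P14 against P1, and the list took 0.0324% of counts in AAV2-Cre, 0.0362% in AAV2-GFP, 0.788% at P1, 0.125% at P14 and 0.0521% at P21 (group means). The 12 homeostatic microglia genes, such as P2ry12, Tmem119 and Cx3cr1, took 0.501 to 0.610% of counts in AAV2-Cre and 0.423 to 0.650% in AAV2-GFP, against 0.00263 to 0.00369% at P1, 0.0290 to 0.0306% at P14 and 0.00857 to 0.00867% at P21. None of the 12 was at 0 in any group. Kdm6a lay at 110 and 112 CPM in AAV2-Cre and at 115, 96.6 and 119 CPM in AAV2-GFP. A total over the whole gene does not check the loss of 1 exon. The replicates are called biological by the study, but whether each library held 1 animal or several is not given in the sources used here, so p-values measure the spread between these libraries. In bulk libraries, fewer cells of a type and less RNA per cell cannot be told apart.

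The promoters shown were chosen because Ly6c2 rose in AAV2-Cre and has a close neighbour and paralog, Ly6c1, and because F13a1 and Pf4 are the other members whose promoter holds the same PU.1 letters. Each runs from 250 bases before to 50 bases after the start site (RefSeq, GRCm38.p6), and 7 of the 8 members had 1 or more start sites in the table, Lyve1 being the exception. Ly6c2, start site 1, is chr15:75111922-75112221 on the minus strand, and Ly6c1, start site 1, is chr15:75048788-75049087 on the minus strand. F13a1, start site 2, is chr13:37049164-37049463 on the minus strand, and Pf4 is chr5:90772185-90772484 on the plus strand. Capitals mark the PU.1 letters, GAGGAAGT read on either strand.
Ly6c2: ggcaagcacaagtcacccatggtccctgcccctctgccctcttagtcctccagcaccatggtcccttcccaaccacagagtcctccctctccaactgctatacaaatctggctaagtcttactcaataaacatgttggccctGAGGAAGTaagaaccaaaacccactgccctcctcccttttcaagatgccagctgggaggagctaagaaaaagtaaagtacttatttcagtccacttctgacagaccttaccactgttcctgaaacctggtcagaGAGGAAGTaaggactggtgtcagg
Ly6c1: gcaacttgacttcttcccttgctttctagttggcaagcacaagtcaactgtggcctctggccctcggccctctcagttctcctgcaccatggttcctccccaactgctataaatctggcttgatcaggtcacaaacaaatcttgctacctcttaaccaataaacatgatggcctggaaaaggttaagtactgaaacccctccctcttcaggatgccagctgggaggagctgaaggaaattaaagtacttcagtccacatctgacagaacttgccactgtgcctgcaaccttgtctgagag
F13a1: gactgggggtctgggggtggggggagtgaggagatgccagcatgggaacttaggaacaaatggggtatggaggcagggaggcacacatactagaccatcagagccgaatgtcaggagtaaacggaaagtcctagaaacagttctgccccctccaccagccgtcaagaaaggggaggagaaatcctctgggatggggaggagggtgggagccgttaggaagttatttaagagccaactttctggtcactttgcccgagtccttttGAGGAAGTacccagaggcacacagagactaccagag
Pf4: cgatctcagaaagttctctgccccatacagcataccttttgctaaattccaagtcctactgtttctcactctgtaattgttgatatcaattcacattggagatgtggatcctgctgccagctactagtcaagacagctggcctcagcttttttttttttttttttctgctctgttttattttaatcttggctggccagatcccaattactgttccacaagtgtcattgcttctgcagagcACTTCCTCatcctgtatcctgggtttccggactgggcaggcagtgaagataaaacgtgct

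PU.1 is a transcription factor of the macrophage lineage. Its letters lay 108 bases before and 26 bases after start site 1 of Ly6c2, 14 bases after start site 2 of F13a1 and, on the minus strand, 10 bases before the start of Pf4. The letters were in 3.20% of 32851 promoters of the same length. They were not in the start site 1 promoter of Ly6c1 but were in that of its start site 2, and the start site 1 promoters of Ly6c2 and Ly6c1 were identical at 208 of 266 aligned positions (78.2%). The other letters searched on both strands were those of ISRE (GAAA and GAAA with any 2 bases between, 3.44% of promoters), GAS (TTCNNNGAA, 8.30%), TATAAA (13.6%) and NF-kB (GGG and TTCC with any 3 bases between, 5.56%). The NF-kB letters were in start site 2 of F13a1, where they share bases with the PU.1 letters, and in start site 2 of both Ly6c genes. TATAAA was in start site 1 of Ly6c1. A match is a description of letters and not a site of binding.

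Mrc1, the mannose receptor CD206, an endocytic lectin that takes up glycoproteins, lies at chr2:14229392-14332057 on the plus strand (GRCm38). It was at 12.3 and 14.0 CPM in AAV2-Cre, against 27.9, 24.6 and 32.7 CPM in AAV2-GFP. It was at 0.618, 0.185 and 1.24 CPM at P1, at 3.02, 2.27 and 1.25 CPM at P14, and at 0.574 and 0.950 CPM at P21. Both AAV2-Cre libraries lay below all 3 AAV2-GFP libraries, and all 5 adult libraries lay above every development library. Groups ranked by mean as AAV2-GFP, AAV2-Cre, P14, P21 and P1, and of these neighbours only P21 and P1 overlapped.

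Cd163, the receptor that clears haemoglobin bound to haptoglobin, lies at chr6:124304656-124330527 on the plus strand. It had 14 and 4 counts in AAV2-Cre and 8, 2 and 0 in AAV2-GFP. At P1 it had 5, 3 and 0 counts, at P14 26, 26 and 17, and at P21 26 and 15. The highest level was 1.02 CPM, in AAV2-Cre replicate 1, and every neighbour in the order of group means overlapped. In the injured adults, where Mrc1 was at its highest, Cd163 was below the floor of 3 counts in 2 of 5 libraries.

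Cd163l1 encodes a receptor of the scavenger receptor cysteine-rich family and in mouse is known chiefly from gamma delta T cells. It lies at chr7:140218267-140231145 on the plus strand, beside 5830411N06Rik. It was at 6.17 and 4.73 CPM in AAV2-Cre, against 13.8, 23.4 and 17.95 CPM in AAV2-GFP. In development it had 10 counts in P1 replicate 2, 2 counts in P14 replicate 2 and 0 in the other 6 libraries. The 5 adult libraries thus lay above all 8 of development, and the AAV2-Cre and AAV2-GFP libraries did not overlap.

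Lyve1, a hyaluronan receptor of lymphatic vessels and of macrophages around vessels, lies at chr7:110850607-110863239 on the minus strand. It was at 33.3 and 23.8 CPM in AAV2-Cre and at 34.7, 21.2 and 20.5 CPM in AAV2-GFP. It was at 6.50, 7.40 and 3.37 CPM at P1, at 32.8, 36.2 and 34.1 CPM at P14, and at 50.2 and 47.5 CPM at P21. Unlike the members above, Lyve1 was highest at P21, and the adult libraries overlapped those of P14. P21 stood above P14, and AAV2-GFP above P1, without overlap.

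Ms4a7, a macrophage gene of the membrane-spanning 4A family, lies at chr19:11321039-11336146 on the minus strand. It was at 27.2 and 35.0 CPM in AAV2-Cre and at 38.8, 22.8 and 40.5 CPM in AAV2-GFP. It was at 0.471, 0.278 and 0.173 CPM at P1, at 1.05, 1.07 and 1.14 CPM at P14, and at 0.547 and 0.416 CPM at P21. The adult groups overlapped, and both lay above all development libraries. P14 stood above P21 without overlap.

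F13a1 encodes the A subunit of coagulation factor XIII, a transglutaminase that cross-links fibrin and is made by macrophages and megakaryocytes. It lies at chr13:36867178-37050244 on the minus strand and shares 74 exon bases with the antisense gene Gm30489, and whether strand was used in counting is not given in the sources used here. It was at 30.7 and 53.5 CPM in AAV2-Cre and at 28.7, 11.2 and 35.4 CPM in AAV2-GFP. It was at 0.294, 0.339 and 0.173 CPM at P1, at 0.647, 0.520 and 0.686 CPM at P14, and at 0.246 and 0.802 CPM at P21. The adult groups overlapped each other but no development library.

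Pf4, the chemokine CXCL4, is stored in platelets and is also made by border macrophages. It lies at chr5:90772435-90773383 on the plus strand. It had 10 and 7 counts in AAV2-Cre and 8, 8 and 5 in AAV2-GFP, or 0.301 to 0.726 CPM. At P1 it had 4, 1 and 2 counts, at P14 5, 5 and 13, and at P21 7 and 3. Every neighbour in the order of group means overlapped, and at these counts a difference between neighbours was not detectable.

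Ly6c2 encodes the Ly6C surface antigen carried at a high level by classical monocytes and also by some T and B lineage cells. It lies at chr15:75108158-75111970 on the minus strand, between Ly6c1 and Ly6g. It was at 149 and 199 CPM in AAV2-Cre, against 36.3, 29.8 and 50.0 CPM in AAV2-GFP. In development it had 6, 2 and 2 counts at P14 and 0 in every P1 and P21 library. The AAV2-Cre libraries thus all lay above the AAV2-GFP libraries, and both adult groups above development.

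**Figure D1:**
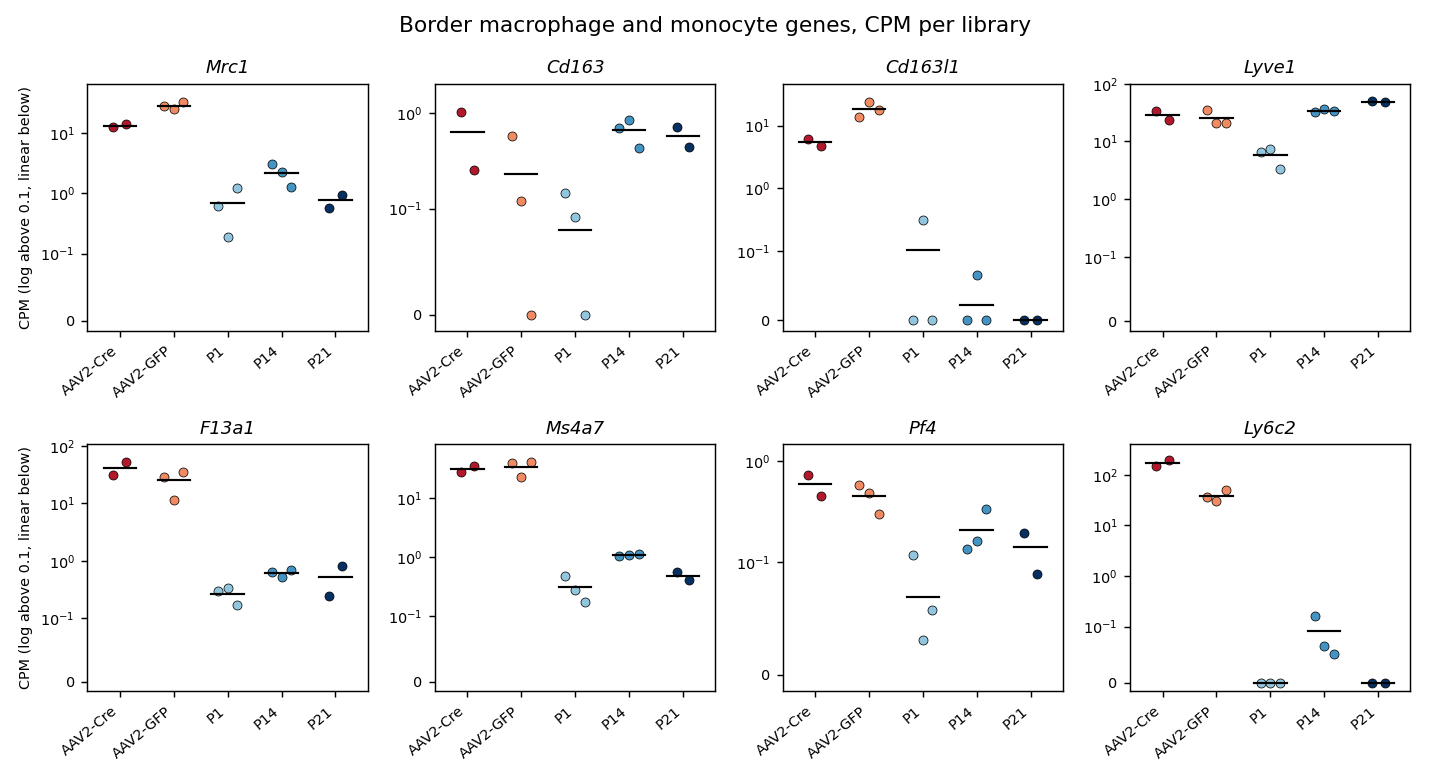
CPM of the 8 genes in each of 13 libraries (points) with the group mean (line), on an axis that is logarithmic above 0.1 CPM and linear below. Ly6c2 is at 149 and 199 CPM in AAV2-Cre, against 29.8 to 50.0 CPM in AAV2-GFP, and Lyve1 is the gene whose highest level, 50.2 CPM, is at P21.

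Levels of different genes were compared per length, as TPM, in which each count was divided by the exon length of its gene and the values of every library sum to one total. In AAV2-Cre, Ly6c2 had the highest mean TPM at 205, followed by Lyve1 at 31.9, Ms4a7 at 22.6, F13a1 at 20.1, Mrc1 at 6.69 and Cd163l1 at 4.61. In AAV2-GFP, Ly6c2 averaged 55.0 TPM and Lyve1 34.1 TPM, with Ms4a7 at 29.8, Cd163l1 at 18.6, Mrc1 at 17.4 and F13a1 at 14.5 TPM. Pf4 averaged 2.66 TPM in AAV2-Cre and 2.46 TPM in AAV2-GFP, and Cd163 0.385 and 0.167 TPM. At P21, Lyve1 averaged 65.9 TPM and no other member had a mean of 1 TPM or more. Of the members, 5 (Mrc1, Cd163l1, F13a1, Ms4a7 and Ly6c2) were higher in all 5 adult libraries than in all 8 development libraries, and 15.2% of the 35338 genes with a count did so, while 16.8% were lower in all 5. Cd163, Lyve1 and Pf4 overlapped.

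AAV2-Cre was set against AAV2-GFP after injury. These groups differ in the protein the virus carried, Cre or green fluorescent protein, as well as in the intended loss of Kdm6a. The effects of these cannot be told apart in these libraries. Ly6c2 rose and Cd163l1 fell in AAV2-Cre, while Mrc1, Lyve1, F13a1 and Ms4a7 did not pass the test. The test was edgeR's quasi-likelihood test across 18395 genes with Benjamini-Hochberg adjustment, and a gene was called at an adjusted p under 0.05. Of the 6 members tested, 1 was higher and 1 lower, and over all genes 1.33% were called higher and 0.294% lower. Cd163 and Pf4 fell below the low-count filter and were not tested.

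Ly6c2 rose 4.37-fold in AAV2-Cre, a log2 fold change of 2.13 ± 0.23 (SE, edgeR adjusted p = 0.00709). The direction held in every alternative, between 1.92 and 2.38, but the call was lost without AAV2-Cre replicate 1 (edgeR adjusted p = 0.0591) and without AAV2-Cre replicate 2 (edgeR adjusted p = 0.0731), each of which leaves a lone AAV2-Cre library assumed to vary like AAV2-GFP. Scaled to the summed counts of the homeostatic microglia genes in place of TMM, the log2 fold change was 2.02 ± 0.38 (SE, edgeR adjusted p = 2.88e-05), and on that scale 1.26% of all genes were called higher and 0.391% lower. Per 1000 such microglia counts there were 29.5 and 31.7 Ly6c2 counts in AAV2-Cre, against 8.75, 4.94 and 8.92 in AAV2-GFP. The shares of T, NK, B and dendritic cell markers were higher in AAV2-Cre as well. The 10 dendritic cell markers took 0.0371 to 0.0437% of counts in AAV2-Cre and 0.0236 to 0.0298% in AAV2-GFP. Their median log2 fold change was 1.26, with 2 called higher and 0 lower by edgeR. The 14 T and NK cell markers took 0.0891 to 0.152% of counts in AAV2-Cre and 0.0424 to 0.0780% in AAV2-GFP, and the 10 B cell markers 0.0570 to 0.114% in AAV2-Cre and 0.0204 to 0.0472% in AAV2-GFP, with no marker of either list at 0. By edgeR 1 of the 14 T and NK cell markers and 2 of the 10 B cell markers were called, against 7 and 6 by DESeq2 and 2 and 3 by limma-voom. Klrd1 of NK cells rose (log2 1.58, edgeR adjusted p = 0.0245), as did Cd79a (log2 1.63, edgeR adjusted p = 0.00827) and Ms4a1 (log2 1.58, edgeR adjusted p = 0.0477) of B cells. No marker of neutrophils (8 tested), platelets (6) or red cells (1) was called by edgeR, DESeq2 or limma-voom. At an unadjusted p under 0.05 there were 0 in edgeR and DESeq2 and 2 neutrophil markers in limma-voom. The neutrophil list took 0.00855 to 0.0102% of counts in AAV2-Cre and 0.00863 to 0.00960% in AAV2-GFP. The median log2 fold change of its 8 tested genes was 0.87, beside -0.03 over all genes. The part of these cells in the Ly6c2 result was not tested.

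Because Ly6c2 and Ly6c1 share sequence, reads of one could be assigned to the other. Of Ly6c2 transcript windows of 100 bases, 5.81% were also found in Ly6c1, and of windows of 150 bases 1.43%, while no other member shared a window of either length with another gene. Ly6c1 was at 0.944 and 2.43 CPM in AAV2-Cre and at 0.359, 1.09 and 0.120 CPM in AAV2-GFP. These overlapped, and the log2 fold change of 1.62 (95% interval -0.81 to 4.04) did not pass (edgeR adjusted p = 0.509). At P14 and P21, where Ly6c2 had at most 6 counts, Ly6c1 was at 3.24 to 9.27 CPM, and it rose at P14 against P1 (log2 3.32, edgeR adjusted p = 0.000286). The paralogs were thus high in different datasets.

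**Figure D2:**
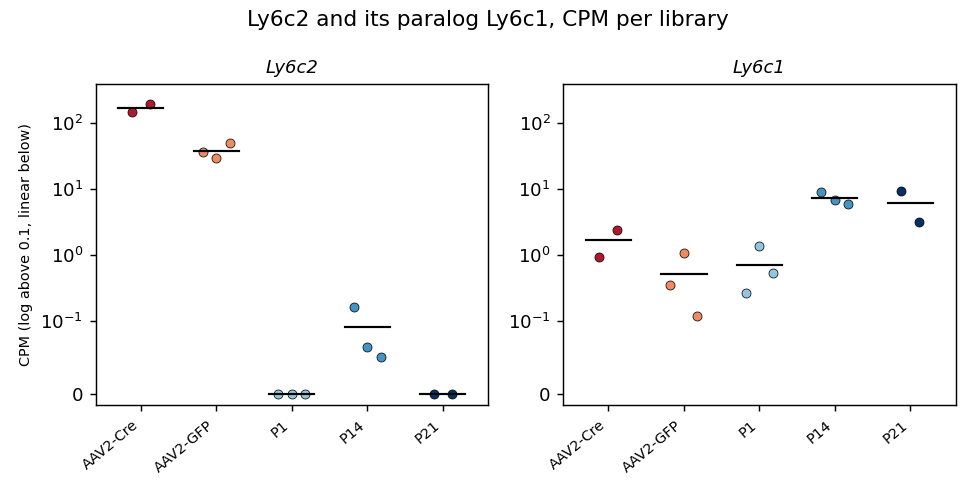
CPM of Ly6c2 (left) and of its paralog Ly6c1 (right) in each library (points) with group means (lines), on one axis that is logarithmic above 0.1 CPM. Ly6c2 is high in the injured adults and at most 0.162 CPM in development, while Ly6c1 is highest at P14 and P21.

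Cd163l1 fell by 1.80 on the log2 scale in AAV2-Cre (3.48-fold lower, SE 0.34, edgeR adjusted p = 0.0433). The sign held in all 14 alternatives, but in 7 of them the gene was no longer called. In edgeR the adjusted p was 0.254 without AAV2-Cre replicate 1, 0.258 without AAV2-Cre replicate 2, 0.106 without AAV2-GFP replicate 2 and 0.0710 without AAV2-GFP replicate 3. Scaled to the microglia genes, Cd163l1 still fell, by 1.81 (edgeR adjusted p = 0.0143). Of 10 genes listed for gamma delta T cells, 7 were found, none was at 0 in either group, and they took 0.00343 to 0.00545% of counts in AAV2-Cre and 0.00292 to 0.00535% in AAV2-GFP. Trdc, the constant region of the delta chain of the T cell receptor, was at 10.5 and 5.24 CPM in AAV2-Cre and at 7.19, 6.53 and 2.17 CPM in AAV2-GFP, which overlapped. The list took 0.00135 to 0.00150% of counts at P1, 0.00614 to 0.00656% at P14 and 0.00589 to 0.00623% at P21. Trdc had at most 3 counts in any development library, so the list total did not follow Trdc. The part of gamma delta T cells in the Cd163l1 result was not tested. The neighbour 5830411N06Rik was at 1.82 and 0.512 CPM in AAV2-Cre and at 3.02, 1.69 and 6.15 CPM in AAV2-GFP (log2 -1.67, 95% interval -3.50 to 0.15, edgeR adjusted p = 0.344).

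Mrc1 was 2.21-fold lower in AAV2-Cre with no overlap of libraries, but missed the threshold (log2 -1.15, 95% interval -1.68 to -0.61, edgeR adjusted p = 0.0543). Over its 14 alternatives the log2 fold change lay between -1.23 and -1.01 and the adjusted p between 0.000659 (DESeq2) and 0.416 (edgeR without AAV2-Cre replicate 1). It passed in 4 of them. Lyve1 had a log2 fold change of 0.13 (95% interval -0.51 to 0.77, edgeR adjusted p = 0.877), F13a1 of 0.71 (-0.25 to 1.68, edgeR adjusted p = 0.457) and Ms4a7 of -0.16 (-0.78 to 0.45, edgeR adjusted p = 0.829).

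Other genes of these cells were read from lists. Of 30 tested genes of other border macrophage markers, 3 rose in AAV2-Cre and none fell, with a median log2 fold change of 0.41 beside -0.03 over all genes. They were Ifitm3, an antiviral membrane protein (log2 2.17), Cd36, a fatty acid and scavenger receptor (1.40), and Ms4a6b (1.10). Of 29 other monocyte genes, 5 rose and none fell (median 0.56), among them Plac8 (1.57), Ms4a4c (1.56), Cd44, a hyaluronan receptor (0.87), and Napsa (1.14). Ccr2, the chemokine receptor of classical monocytes, was at 389 and 426 CPM in AAV2-Cre and at 307, 235 and 321 CPM in AAV2-GFP. Ccr2 and Napsa were named after their values were seen. Of 12 homeostatic microglia genes, 1 fell, Fcrls (log2 -2.30, edgeR adjusted p = 0.00698), which was at 12.3 and 18.2 CPM in AAV2-Cre against 82.8, 58.0 and 79.3 CPM in AAV2-GFP, and the list's median was -0.02.

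P14 was set against P1 to ask how the sorted cells changed in the weeks after birth. Of the 5 members tested, 4 rose at P14, while 33.6% of all 20890 genes tested were called higher and 33.6% lower. Lyve1 rose 5.85-fold (log2 2.55 ± 0.21, SE, edgeR adjusted p = 3.10e-06) and Cd163 7.79-fold (log2 2.96 ± 0.75, edgeR adjusted p = 0.00595). Cd163 had 5, 3 and 0 counts at P1, so the size of its fold rests on counts near the floor. Ms4a7 rose 3.45-fold (log2 1.79 ± 0.43, edgeR adjusted p = 0.00410) and Mrc1 3.11-fold (log2 1.64 ± 0.56, edgeR adjusted p = 0.0264). The call for Mrc1 was lost in 5 of 16 alternatives, among them edgeR without P1 replicate 1 (adjusted p = 0.0734), P1 replicate 2 (0.0605), P14 replicate 1 (0.107) and P14 replicate 2 (0.0673). F13a1 had a log2 fold change of 1.17 (95% interval -0.07 to 2.41, edgeR adjusted p = 0.0875), although its 3 P14 libraries lay above its 3 P1 libraries, and was called without P21 replicate 1, which shares the estimate of spread (edgeR adjusted p = 0.0470). Cd163l1, Pf4 and Ly6c2 had too few counts to be tested.

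Genes of neighbouring cell types moved as well. All 12 blood vessel endothelium markers, Ly6c1 among them, rose at P14, and the list took 0.159 to 0.170% of counts at P14, against 0.0154 to 0.0287% at P1. All 10 pericyte and smooth muscle markers rose too (median log2 4.36). Their list took 0.443 to 0.494% of counts at P14, against 0.0114 to 0.0371% at P1. Of 12 microglia genes 11 rose (median log2 3.57), and of 25 other border macrophage genes 22 rose and none fell (median 2.94), including Stab1, a scavenger receptor (3.26), Igfbp4 (2.40) and Colec12 (4.51). Of 16 other monocyte genes 10 rose and 2 fell (median 1.82). Scaled to the summed microglia genes, Mrc1 was lower at P14 (log2 -1.45, edgeR adjusted p = 0.00403), as were Lyve1 (-0.69, edgeR adjusted p = 0.00491), F13a1 (-2.02, edgeR adjusted p = 0.00605) and Ms4a7 (-1.42, edgeR adjusted p = 0.0257). On that scale 1.32% of all genes were called higher and 90.4% lower, so 4 of 5 members is near the background. Cd163 was at -0.21 (95% interval -1.99 to 1.58, edgeR adjusted p = 0.826).

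P21 was set against P14. No member of the 5 tested was called, while 14.6% of all genes were called higher and 19.3% lower. With library size alone in place of TMM, 2326 genes were called higher and 4722 lower, against 3047 and 4024 with TMM. At an unadjusted p under 0.05 there were 3 members, Mrc1, Ms4a7 and Lyve1, and DESeq2 and limma-voom each called 1, Lyve1. Ms4a7 had a log2 fold change of -1.12 (95% interval -2.15 to -0.08, edgeR adjusted p = 0.0919), Mrc1 of -1.46 (-2.89 to -0.02, edgeR adjusted p = 0.109) and Lyve1 of 0.57 (0.10 to 1.03, edgeR adjusted p = 0.0621). The P21 and P14 libraries of these 3 did not overlap. With 2 against 3 libraries this can arise from their order alone, and the share over all genes was not counted. F13a1 was at -0.18 (-1.50 to 1.13) and Cd163 at -0.13 (-1.65 to 1.40). Of 25 other border macrophage genes 11 fell and none rose at P21 (median -0.90), and of 12 microglia genes 10 fell (median -1.61). All 10 pericyte and smooth muscle markers fell (median -2.53).

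Relative to the microglia genes, Lyve1 rose at P21 against P14 (log2 2.29, edgeR adjusted p = 4.38e-12), as did F13a1 (1.53, edgeR adjusted p = 0.0445), and on that scale 81.2% of all genes were called higher and 2.09% lower. Lyve1 had 579 and 565 counts per 1000 microglia counts at P21, against 113 to 125 at P14. Mrc1 had 6.62 and 11.3 at P21 against 4.13 to 10.5 at P14, and Ms4a7 6.30 and 4.94 at P21 against 3.65 to 3.79 at P14. Neither passed the test on that scale (edgeR adjusted p = 0.651 for Mrc1 and 0.383 for Ms4a7).

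Over the whole span, P21 against P1, Lyve1 rose 8.66-fold (log2 3.11 ± 0.23, SE, edgeR adjusted p = 1.15e-06) and Cd163 7.14-fold (log2 2.84 ± 0.81, edgeR adjusted p = 0.0107). These were 2 of 5 members tested, and 34.1% of all genes were called higher and 33.6% lower. The size of the Cd163 fold again rests on P1 counts near the floor. The call for Cd163 was lost without P21 replicate 1 (edgeR adjusted p = 0.0605) and with all 13 libraries in 1 fit (edgeR adjusted p = 0.0699). Mrc1 (log2 0.18, 95% interval -1.31 to 1.68), F13a1 (0.98, -0.39 to 2.36) and Ms4a7 (0.67, -0.43 to 1.77) did not pass, although F13a1 did without P21 replicate 1 (log2 1.57, edgeR adjusted p = 0.0396). Scaled to the microglia genes, Lyve1 rose (log2 1.60, edgeR adjusted p = 1.20e-07) and Mrc1 fell (log2 -1.19, edgeR adjusted p = 0.0474), while 7.86% of all genes were called higher and 69.7% lower. P14 and P21 were each set against the same P1 libraries.

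**Figure D3:**
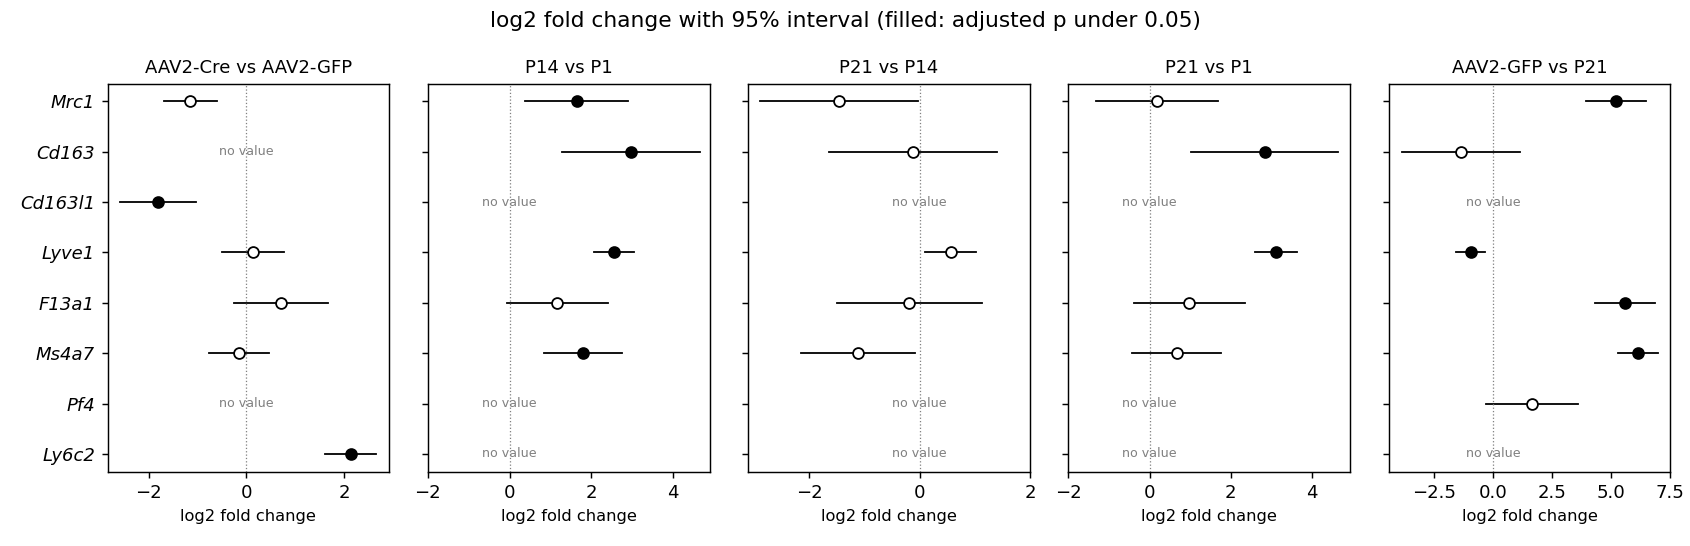
log2 fold change of each gene in 5 comparisons (columns) with its 95% interval, filled where the edgeR adjusted p was under 0.05. Ly6c2 lies at 2.13 and Cd163l1 at -1.80 for AAV2-Cre vs AAV2-GFP, and "no value" marks genes below the low-count filter or, for AAV2-GFP vs P21, genes at 0 in both P21 libraries.

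AAV2-GFP was set against P21, the oldest uninjured group, with all confounded factors named above and with libraries that the comparisons above also used. The fit assumed the same spread in all 13 libraries, with a common coefficient of variation between replicates of 0.218. That coefficient was 0.340 in the fit of the adults and 0.109 in that of development. The errors and p-values here may thus be too small for AAV2-GFP. Of the 8 members, 5 were higher and 1 lower in AAV2-GFP, while 32.6% of 23844 genes tested were called higher and 33.9% lower. Ms4a7 was 69.8-fold higher (log2 6.13 ± 0.39, SE, edgeR adjusted p = 1.56e-08), F13a1 48.1-fold (log2 5.59 ± 0.59, edgeR adjusted p = 2.12e-06) and Mrc1 37.2-fold (log2 5.22 ± 0.59, edgeR adjusted p = 3.85e-06). Ly6c2 and Cd163l1 had 0 counts at P21. Against a floor of 3 counts per library, Ly6c2 was at least 452-fold higher in AAV2-GFP and at least 2031-fold higher in AAV2-Cre, and Cd163l1 at least 215-fold higher in AAV2-GFP and at least 63.7-fold higher in AAV2-Cre. Lyve1 was lower in AAV2-GFP (log2 -0.94 ± 0.28, edgeR adjusted p = 0.00990). Cd163 (log2 -1.35, 95% interval -3.87 to 1.16, edgeR adjusted p = 0.317) and Pf4 (1.65, -0.28 to 3.58, edgeR adjusted p = 0.118) did not pass, while limma-voom called Pf4 (adjusted p = 0.0441).

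The microglia genes were higher by a median log2 of 6.10, and of 31 other border macrophage genes 22 were higher and 3 lower. Markers of other cells differed as well. Higher in AAV2-GFP were 10 of 10 rod markers (median log2 5.58, 2.89 to 3.45% of counts in AAV2-GFP against 0.0494 to 0.0508% at P21), 14 of 14 T and NK cell markers (median 6.30) and 9 of 10 B cell markers (median 6.91). Of 12 blood vessel endothelium markers 8 were lower and 1 higher (median -2.59), and the list took 0.0151 to 0.0326% of counts in AAV2-GFP against 0.183 to 0.186% at P21. All 10 pericyte and smooth muscle markers were lower (median -4.86). Of 8 lymphatic endothelium markers 2 were higher and 3 lower (median -0.63). The part of these cells in the member values was not tested. Scaled to the microglia genes, Mrc1 (log2 -0.69, 95% interval -1.91 to 0.54, edgeR adjusted p = 0.279), F13a1 (-0.29, -1.66 to 1.09, edgeR adjusted p = 0.684) and Ms4a7 (0.27, -0.98 to 1.52, edgeR adjusted p = 0.676) did not pass the test. Lyve1 (-6.79, edgeR adjusted p = 7.28e-13), Cd163 (-7.05, edgeR adjusted p = 1.88e-05) and Pf4 (-4.14, edgeR adjusted p = 0.00348) were lower on that scale, where 85.8% of all genes were called lower. Ly6c2 and Cd163l1 were higher on it, with 1.47% of all genes called higher. Lyve1 had 8.37, 3.52 and 3.66 counts per 1000 microglia counts in AAV2-GFP, against 579 and 565 at P21.

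**Figure D4:**
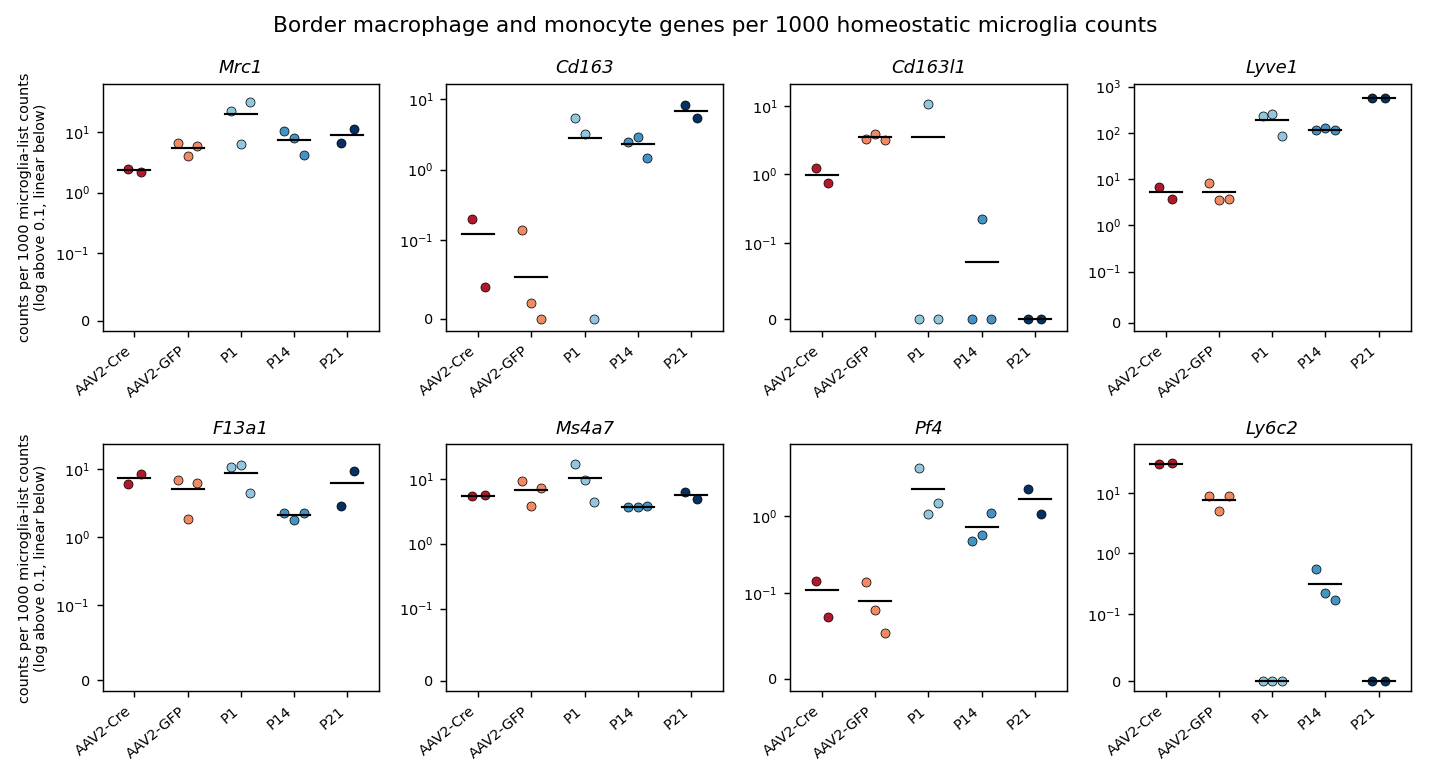
Counts of each gene per 1000 counts of the 12 homeostatic microglia genes, per library (points) with group means (lines), on an axis that is logarithmic above 0.1. Ms4a7 lies between 3.65 and 16.9 in all 13 libraries, while Lyve1 is at 579 and 565 at P21 and at 3.52 to 8.37 in AAV2-GFP.

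Likeness between genes was described as the Pearson correlation of log2 CPM over 13 libraries, which share the split between the datasets, against 15604 genes. Ms4a7 was most like Siglece (r = 0.997), I830077J02Rik (0.996) and Pirb (0.995), and Ly6c2 most like Ifi213 (0.998), Il4ra (0.997) and Fgl2 (0.997). Mrc1 was most like Gm17231 (0.985), Frmpd2 (0.976) and Tbxas1 (0.970), Cd163l1 most like Gm5141 (0.984), Mterf3 (0.982) and Dtymk (0.981), and F13a1 most like Abcf2 (0.991), Sec23b (0.989) and Snw1 (0.989). Cd163 reached 0.893 (Tesc) and Pf4 0.949 (Lrguk). Among the members, r was 0.984 for F13a1 and Ly6c2, 0.980 for F13a1 and Ms4a7, 0.946 for Mrc1 and Ms4a7 and 0.300 for Lyve1 and Mrc1. With the group means taken away, r for these pairs was 0.463, 0.512, -0.203 and -0.626 in the same order.

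Genes most like Lyve1 included Mgarp (0.985) and Prox1os (0.980). After the group means were taken away, the gene most like it was Prox1 (0.991 over 13 libraries), which encodes a transcription factor of lymphatic endothelium that retinal Müller glia and some retinal neurons also express. Prox1 was at 301 and 240 CPM in AAV2-Cre, against 426, 312 and 315 CPM in AAV2-GFP. It was at 60.6, 66.5 and 41.7 CPM at P1, at 393, 391 and 381 CPM at P14, and at 403 and 401 CPM at P21. The library lowest in Lyve1 was also lowest in Prox1 within AAV2-Cre, P1 and P21 but not within AAV2-GFP or P14. At P14 replicate 1 was lowest in Lyve1 and highest in Prox1. Prox1 was picked as the highest of 15604 correlations, so its r is a description only. The 8 lymphatic endothelium markers, Prox1 among them, took 0.0408 to 0.0434% of counts in AAV2-Cre, 0.0461 to 0.0557% in AAV2-GFP, 0.198 to 0.201% at P1, 0.142 to 0.145% at P14 and 0.161 to 0.165% at P21, with 1 marker at 0 in AAV2-Cre and none at 0 elsewhere. Their part in the Lyve1 levels was not tested. The cells that held the Lyve1 RNA cannot be told apart in these libraries.

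**Figure D5:**
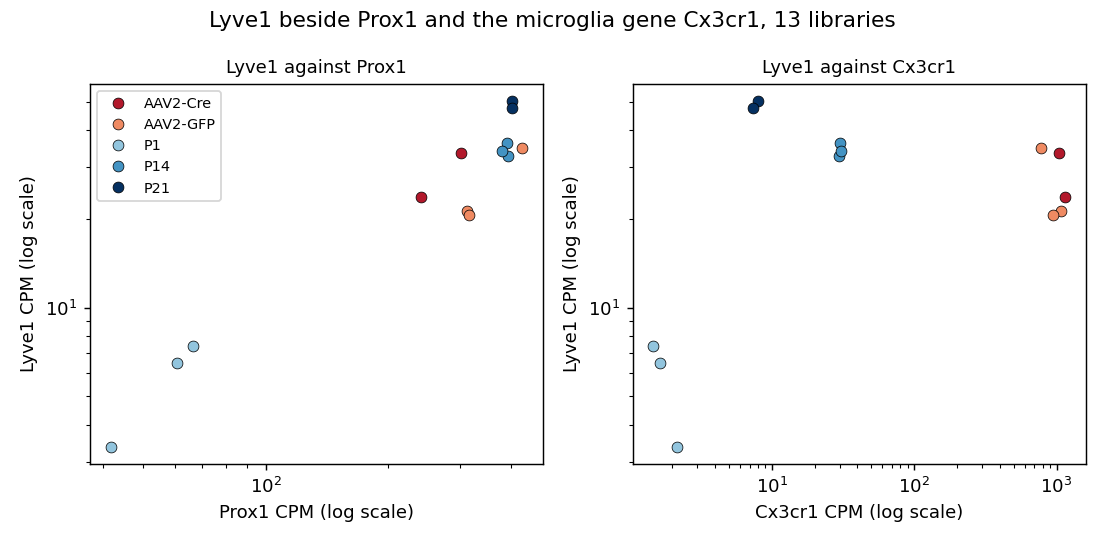
Lyve1 CPM against Prox1 CPM (left) and against Cx3cr1 CPM, a microglia gene (right), 1 point per library, both axes logarithmic, colors for the 5 groups. Lyve1 and Prox1 are both lowest in the 3 P1 libraries, while Cx3cr1 is at 7.42 and 7.96 CPM at P21, where Lyve1 is highest.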

How the data were processed

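RNA was counted in 13 libraries of Thy1.2-sorted retinal cells. Per the submitters' processing notes, the authors used Trimmomatic 0.39 for trimming and FastQC 0.11.9 for quality. HISAT2 2.2.1 was the aligner, with GRCm38 as the build, and gene totals came from featureCounts in Subread 2.0.3. The deposited table holds whole counts, not normalized, for 52550 genes. Strand and multimapping settings and the annotation release are not given in the sources used here. Symbols, positions and exon lengths came from GENCODE vM21, which matched 52403 gene IDs. Totals ran from 13637602 to 38812917, and the deeper development libraries have the lower floor.

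The 5 adult and the 8 development libraries were fitted separately, and all 13 together for AAV2-GFP against P21, with edgeR 4.0.16 (glmQLFit, glmQLFTest, TMM, filterByExpr) in R 4.3.3. Adjusted p is Benjamini-Hochberg over all genes tested. CPM and log2 CPM (prior count 2) used TMM over 13 libraries. Intervals are 95%. A further fit scaled each library to its summed homeostatic microglia counts. The fits were run on simulated data with the same fixed spread for all genes of a comparison. For the fit of all 13 libraries that spread was smaller than the one estimated, so its p-values were not checked. Every replicate pair differed by more than sampling noise. All 8 members are named, with at most 4 genes of smallest p per list, the paralog and neighbour genes, and the 3 genes most like each member, apart from items that are not reported here. Ccr2, Trdc and Napsa were named after their values were seen. The members and lists were chosen with earlier results of these data known.

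Alternatives were DESeq2 1.42.0, limma-voom (limma 3.58.1), DESeq2 size factors, library size alone, a minimum of 10 counts per library, no filter on low counts, a replicate block, other sets of libraries and each library left out. Another, without rod, T, NK and B cell markers, was chosen after seeing the data.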

Additional observations from a re-analysis of the deposited data

How the results depend on the processing

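Of 494 values of members under alternatives, 454 kept direction and side of the threshold, 16 were no longer called, 14 became called and 10 turned direction, all 10 of values not called. For AAV2-Cre vs AAV2-GFP, the 2 members called became 1 with limma-voom, 1 with the replicate block and 1 with all 13 libraries in 1 fit, and the 298 genes called became 1326 with DESeq2, 456 with limma-voom, 1512 without the low-count filter, 530 with at least 10 counts in every library and 2504 with all 13 libraries in 1 fit. Leaving out 1 library gave 0 to 2 members and 5 to 283 genes, with 8 genes without AAV2-Cre replicate 1, 5 without AAV2-Cre replicate 2, 152 without AAV2-GFP replicate 1 and 96 without AAV2-GFP replicate 2. For P21 vs P14, the 0 members called became 1 with DESeq2, 1 with limma-voom and 2 without the low-count filter, and 0 to 2 without 1 library (1 without P1 replicate 2, 2 without P1 replicate 3), while all genes called were 2624 with all 13 libraries in 1 fit, against 7071. With at least 10 counts in every library, which leaves fewer members to test, 1 member was called for P14 vs P1, 1 for P21 vs P1 and 1 for AAV2-GFP vs P21, with 10523 genes for the last. With all 13 libraries in 1 fit 1 member was called for P21 vs P1. The log2 fold change turned for Ms4a7 in AAV2-Cre vs AAV2-GFP with the replicate block (0.016), without AAV2-Cre replicate 1 and without AAV2-GFP replicate 3 (range without 1 library -0.35 to 0.042, with 0.0071 without AAV2-GFP replicate 3), and for Lyve1 without AAV2-Cre replicate 1 (range -0.10 to 0.39). For P21 vs P14 it turned for Cd163 without P14 replicate 2 (0.084) and P21 replicate 2 (range -0.49 to 0.15), and for F13a1 without P21 replicate 1 (range -1.29 to 0.43). For P21 vs P1 it turned for Mrc1 without P1 replicate 2 and P21 replicate 2 (range -0.26 to 0.92, with -0.25 without P21 replicate 2), and for F13a1 without P21 replicate 2 (range -0.12 to 1.57). The cause of these was not tested.

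Libraries of different groups share replicate numbers, and deviations of same-numbered libraries correlated at -0.158 to 0.068. No pairing was seen, but with 2 or 3 libraries per group this check cannot exclude one. With the replicate block, Cd163l1 in AAV2-Cre vs AAV2-GFP (edgeR adjusted p = 0.0859) and Mrc1 in P14 vs P1 (edgeR adjusted p = 0.0591) were no longer called, and no other member changed its call. Library size alone moved the median log2 fold change of all genes to 0.11 for P14 vs P1, and DESeq2 size factors to 0.11 for AAV2-GFP vs P21. Under the added setting without rod, T, NK and B cell markers, chosen after seeing the data, Ly6c2 (2.15, edgeR adjusted p = 0.00668) and Cd163l1 (-1.78, edgeR adjusted p = 0.0420) were still called. That setting removes the marker genes only and keeps any member counts that came from those cells. The part of those cells was therefore not tested by it. Depth limits Cd163 and Pf4, which had at most 14 counts in any adult library.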

Other observations

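Lists of genes related to the members by family or role were counted in AAV2-Cre against AAV2-GFP, where 1.33% of all genes were called higher. Of 8 tested genes of the Ms4a family, to which Ms4a7 belongs, 4 rose and none fell, with a median log2 fold change of 0.88. They were Ms4a4c (1.56), Ms4a4b (1.34), Ms4a6b (1.10) and Ms4a1 (1.58), the last a B cell gene that encodes CD20. Of 8 genes of the Ly6 family, to which Ly6c2 belongs, 1 rose, Ly6a (log2 2.01, edgeR adjusted p = 0.00698), which encodes the stem cell antigen SCA-1. Ly6a was at 47.1 and 54.6 CPM in AAV2-Cre, against 12.7, 10.3 and 14.0 CPM in AAV2-GFP, without overlap. Of 10 CXC chemokines and receptors related to Pf4, 3 rose, namely Cxcl10 (2.28) and its receptor Cxcr3 (1.62), and the B cell chemokine Cxcl13 (1.70).

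Of 20 macrophage growth factors and monocyte recruitment genes, 6 rose and none fell (median log2 0.72). The 4 with the smallest p were the chemokines Ccl5 (1.74) and Ccl7 (1.62) and the cytokines Tnf (1.31) and Il1b (1.08). Of 7 tested scavenger receptor genes of the family of Cd163 and Cd163l1, 1 rose, Cd6 (log2 1.56, edgeR adjusted p = 0.0163), a surface receptor of T cells that was at 166 and 104 CPM in AAV2-Cre, against 40.2, 45.3 and 47.8 CPM in AAV2-GFP. Of 14 macrophage transcription factors 1 rose, Irf8 (1.15, edgeR adjusted p = 0.00992). Of 12 transglutaminase and clotting genes related to F13a1, 1 rose, Tgm2 (1.62, edgeR adjusted p = 0.0235). In the other lists edgeR called none. These were 15 genes of haem and iron handling (5 at an unadjusted p under 0.05, 2 called by DESeq2, 1 of them higher, and 0 by limma-voom), 11 mannose receptor and C-type lectin genes (3 at an unadjusted p under 0.05, 3 called by DESeq2, 1 of them higher, and 0 by limma-voom) and 8 hyaluronan genes (1 at an unadjusted p under 0.05, 0 called by DESeq2 or limma-voom).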
